A study of Homo sapiens with 12 samples.

Results

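The histone genes were described in human U937 cells, a line of monocytic cells from a histiocytic lymphoma, by construct and by hour. A gene was counted as a histone gene where its symbol in the platform annotation begins with H1-, H2A, H2B, H3-, H3C or H4, and only probe sets with a single symbol were used. This gave 59 of the 19775 genes on the array, measured by 78 probe sets, and each gene was read from its probe set with the highest mean signal. The clustered genes, named with a C and a number or as H1-1 to H1-6, numbered 45, of which 42 lie on chromosome 6, 2 on chromosome 1 (H2AC25 and H2BC21) and 1 on chromosome 21 (H2BC12L). The replication-independent genes numbered 10, and 4 names fell in neither class (H1-9P, H2BW4P, H3-4 and the antisense RNA H1-10-AS1).

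The cells were electroporated with a plasmid for GFP fused to PR2VR, for GFP fused to PRWT or for GFP alone, and GFP-positive cells were sorted. PRWT is wild-type PML-RARA, the driver of acute promyelocytic leukemia, in which part of PML is joined to the retinoic acid receptor RARA. The series title names a protease-resistant fusion, which is read here as PR2VR, although the sample label of its plasmid reads wild type as well. Each construct was measured on 2 arrays 9 h and on 2 arrays 6 h after transfer, which makes 12 arrays in 6 groups. The titles count the hours from infection for PR2VR and PRWT and from transfection for GFP, so a difference in procedure cannot be told apart from the difference between fusion and GFP cells. The labels do not say whether the 2 arrays of a group came from separate cultures, and p-values therefore measure only the spread between these samples. All cells are of 1 line, transiently transfected, so the values describe the first hours of expression in a transformed line and not leukemic promyelocytes.

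Histones H2A, H2B, H3 and H4 form the spool on which DNA is wound, and linker H1 closes each turn. Clustered genes are transcribed mainly in S phase under NPAT, and most of their mRNAs end in a stem-loop bound by SLBP and carry no poly(A) tail. Replication-independent genes such as H2AZ1 and H3-3A make polyadenylated mRNA throughout the cycle. H2AX was placed in this class by its symbol. The standard labelling of these arrays starts from poly(A), so the arrays read clustered genes mainly through transcripts that carry a tail, which some of them, H2BC12, H2BC21 and H2AC6 among them, are known to make in differentiating cells. PML nuclear bodies, which PML-RARA disperses, hold the H3.3 chaperone DAXX and its partner ATRX.

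RefSeq windows of GRCh38.p14, from 250 bases before to 50 bases after a gene's first listed start, were available for 51 of the 59 genes. Of these windows, 5 are printed below because they belong to genes that the values turn on and show how the classes differ in sequence. Capitals mark, on either strand, the octamer ATTTGCAT, which reads ATGCAAAT on the opposite strand, the CCAAT box, which reads ATTGG there, and the TATA box TATAAA, which reads TTTATA there. Matches of the last motif on both strands can overlap and then form a single run of capitals. Each sequence runs 5′ to 3′ on the gene's own strand. H2BC12 (chr6:27146809-27147108, minus strand) and H2BC21 (chr1:149886633-149886932, minus strand) are the H2B genes that read above a signal of 616, the highest bacterial control, on every array. In both the octamer begins 46 bases before the start. H2BC6 (chr6:26183511-26183810, plus strand) has it 108 bases before the start. H2AC6 (chr6:26123922-26124221, plus strand) shares 255 bases of its window with the window of its neighbour H2BC4, which lies on the opposite strand, and the octamer there reads toward H2BC4. H2AZ1 (chr4:99950226-99950525, minus strand) has a TATA box and no octamer in its window.
H2BC12: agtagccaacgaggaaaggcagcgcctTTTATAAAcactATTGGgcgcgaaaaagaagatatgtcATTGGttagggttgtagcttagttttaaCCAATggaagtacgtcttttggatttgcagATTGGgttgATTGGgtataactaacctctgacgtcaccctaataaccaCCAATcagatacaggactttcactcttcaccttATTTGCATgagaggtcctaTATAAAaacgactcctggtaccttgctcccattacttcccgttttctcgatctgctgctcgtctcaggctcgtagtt
H2BC21: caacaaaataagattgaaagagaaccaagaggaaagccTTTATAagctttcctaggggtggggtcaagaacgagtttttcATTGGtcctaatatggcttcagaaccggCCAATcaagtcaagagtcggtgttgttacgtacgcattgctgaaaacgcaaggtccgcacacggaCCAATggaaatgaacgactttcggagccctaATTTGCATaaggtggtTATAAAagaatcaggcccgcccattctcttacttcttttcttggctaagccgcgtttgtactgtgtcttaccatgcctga
H2BC6: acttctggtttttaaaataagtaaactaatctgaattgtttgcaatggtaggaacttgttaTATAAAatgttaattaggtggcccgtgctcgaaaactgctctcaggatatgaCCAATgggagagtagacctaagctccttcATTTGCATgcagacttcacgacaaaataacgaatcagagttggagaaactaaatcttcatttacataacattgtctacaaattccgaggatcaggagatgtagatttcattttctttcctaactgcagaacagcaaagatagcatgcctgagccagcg
H2AC6: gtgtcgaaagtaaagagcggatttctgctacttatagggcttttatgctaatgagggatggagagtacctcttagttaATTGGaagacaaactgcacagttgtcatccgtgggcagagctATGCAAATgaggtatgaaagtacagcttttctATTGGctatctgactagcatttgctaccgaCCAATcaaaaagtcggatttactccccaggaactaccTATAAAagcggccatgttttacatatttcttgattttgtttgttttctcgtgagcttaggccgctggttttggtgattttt
H2AZ1: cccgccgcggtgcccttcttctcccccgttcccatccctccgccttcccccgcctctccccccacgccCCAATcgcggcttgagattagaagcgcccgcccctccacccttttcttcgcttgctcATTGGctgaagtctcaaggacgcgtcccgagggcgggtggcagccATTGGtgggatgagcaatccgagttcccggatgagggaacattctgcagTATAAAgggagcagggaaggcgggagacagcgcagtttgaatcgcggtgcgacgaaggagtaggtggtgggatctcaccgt

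The octamer, the sequence that POU2F1 binds in H2B promoters, was present in 10 of 13 windows of clustered H2B genes (76.9%) and in 6 of 8 of clustered H2A genes (75%). It was in 0 of 6 H1, 0 of 6 H3 and 0 of 7 H4 windows and in 0 of 10 windows of replication-independent genes, against 1.8% of all 27305 promoters in the table. CCAAT was in 35 of 40 clustered windows (87.5%) and in 9 of 10 replication-independent ones (90%), against 35.7% of all promoters, but in 2 of 7 H4 windows. TATAAA was in 27 of 40 clustered windows (67.5%), against 12% of all promoters. These counts describe letters in a window, and H2A and H2B windows that overlap, as those of H2AC6 and H2BC4 do, are not separate observations.

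Signals are MAS5 intensities on a linear scale, and differences are of log2(signal + 62.5) with their standard errors (SE). The RARA probe set read 9281.2 to 41097.2 on PR2VR arrays, 11970.8 to 58985 on PRWT arrays and 48.2 to 309.2 on GFP arrays, as the labels have it. Of 14 U937 markers on the array 9 had a median signal above 616, the highest value of the 9 bacterial hybridisation controls, against 0 of 5 T cell, 0 of 3 erythroid, 2 of 4 B cell and 1 of 6 epithelial and fibroblast markers. CD14, FCGR1A, SPI1 and MPO were below 616 on all 12 arrays. The 3 arrays of 9 h number 2, 1 per construct, stood apart, with scores of 59.8 to 77.7 on the first principal component against -36.4 to -7.31 for the other 9. The spiked poly(A) control lys read 86050.7 to 121536.3 on these 3 arrays and at most 297.9 on the others, phe read 31631.4 to 48646.3 against at most 231.9, and thr 15760.8 to 24070.4 against at most 126.7. Their median signals were 387.8 to 436 and their GAPDH ratios of 3′ to 5′ signal 2.21 to 2.75, against 238.6 to 292.1 and 3.82 to 12.9 elsewhere. The set holds every construct, and it bears on comparisons between hours.

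The highest bacterial control, 616, served as a fixed mark and is not a measure of background. On all 12 arrays 8 of 59 histone genes read above 616: H2AZ1, H2AZ2 and H2AX among the replication-independent genes, and H2BC12, H2AC6, H1-2, H2BC21 and H2AC25 among the clustered. The share of all genes above this mark was not counted. A gene was tested where its mean reached the 40th percentile of probe sets, a log2 level of 7.85, which 25 of 45 clustered, 5 of 10 replication-independent and 0 of 4 other names did, 30 of 59 in all. Among all genes 13959 of 19775 did, a larger share. Just inside lay H1-1 (7.92), H2AC15 (7.91) and H3C3 (7.89), and just outside H2AC16 (7.85), H2AJ (7.84) and H1-3 (7.76). Of the 29 untested genes 27 were below 616 on every array. The exceptions were H3C8, above it on 2 arrays with a highest signal of 1023.1, and H3-4, on 1 array at 749.6.

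The untested genes include most clustered H3 genes (H3C1, H3C2, H3C7, H3C8 and H3C11) and the H2B genes H2BC1, H2BC3, H2BC11, H2BC13, H2BC14, H2BC15 and H2BC17. Their highest signals ran from 69.7 for H1-10-AS1 to 1023.1 for H3C8. Also untested were the germ cell linker genes H1-7 and H1-8, H2AP, H2BW2, and the pseudogenes H2AC5P, H4C10P, H2BW4P and H1-9P. The filter was applied to the mean of all 12 arrays. Of the 30 tested genes 7 had a mean under it at 6 h (H4C5, H1-6, H4C9, H2BC9, H1-1, H2AC15 and H3C3) and 0 at 9 h. On PR2VR arrays 5 were under it (H1-6, H2AC14, H2BC9, H1-1 and H3C3), on PRWT arrays 2 (H1-1 and H2AC15) and on GFP arrays 3 (H2AC4, H4C7 and H2BC9). Such genes were tested only through the arrays on which they are high, so a difference between those arrays and the others is partly built into their selection. Counts and medians over the 30 are therefore descriptions. Medians or counts of all 45 clustered genes, with no filter, are given beside them against GFP and between the hours.

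Across the constructs the histone genes showed no change that passed the test. In limma, 0 of 30 had an adjusted p under 0.05 when the fusions together were set against GFP, where 0.00716% of all genes did (1 gene), and the same held for PR2VR against GFP (0 of 30, 0.00716% of all genes) and for PRWT against GFP (0 of 30, 0.00716%). With the arrays of 1 hour and number as a block, 0.315% of all genes passed in fusion against GFP and 0.294% in PR2VR against GFP, and still 0 of 30 histone genes. At an unadjusted p under 0.05 there were 0 of 30 in fusion against GFP (3.14% of all genes), 1 in PR2VR (3.95%) and 1 in PRWT (2.06%), and with the block 3 of 30 in fusion (8.4%), 1 in PR2VR (11.1%) and 2 in PRWT (5.44%). Every gene in these counts was H2BC9, H2AC4 or H2AC14. Each of these had a mean under the filter on GFP or PR2VR arrays, so the counts are partly built into the selection. No histone gene had all PR2VR arrays above all GFP arrays (1.48% of all genes did) or all below them (1.16%).

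The classes centred near 0. In fusion against GFP the clustered genes had a median difference of -0.09, the replication-independent genes 0.04 and all genes -0.02 (log2). PR2VR gave 0.02, 0.05 and -0.03 against GFP, and PRWT -0.06, 0.03 and 0.00. With no filter, the medians of the 45 clustered genes were -0.08 in fusion, -0.02 in PR2VR and -0.09 in PRWT against GFP. Those of the 10 replication-independent genes were -0.07, -0.07 and -0.03, and those of all 19775 genes -0.02, -0.03 and 0.00. By family, H1 had a median of -0.22 in fusion against GFP (2 of 5 above 0), H2A -0.09 (3 of 9), H2B -0.08 (3 of 7), H3 0.08 (2 of 3) and H4 0.20 (4 of 6). Of single genes, H2BC9 differed between fusion and GFP by 0.94 ± 0.45, H2AC4 by 0.99 ± 0.57, H4C7 by 0.50 ± 0.41, H4C4 by 0.36 ± 0.31, H2AC14 by -0.75 ± 0.39, H2AC25 by -0.31 ± 0.30, H1-2 by -0.25 ± 0.32 and H2BC12 by -0.25 ± 0.33. On GFP arrays the means of H2BC9 (7.33), H2AC4 (7.69) and H4C7 (7.74) lay under the filter, and on PR2VR arrays that of H2AC14 (7.37). The differences of these genes are partly built into their selection.

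Among the replication-independent genes, H2AZ1 encodes H2A.Z, the variant at nucleosomes that flank transcription starts. Its signal was 73005.8 and 67474.1 at 9 h and 82728.8 and 64396 at 6 h on PR2VR arrays, 67905.3 and 84754.6 at 9 h and 67000.8 and 106283.6 at 6 h on PRWT arrays, and 57477.8 and 74342 at 9 h and 69456.3 and 59255.9 at 6 h on GFP arrays, numbers 1 and 2 in that order. The ranges of the constructs overlap, with the highest value on a PRWT array. Within sets the mean of the fusions was above GFP in 4 of 4, by 0.29 and 0.02 at 9 h and by 0.10 and 0.48 at 6 h on the log2 scale, as for 2 of 30 histone genes (H2AZ1 and H2BC9) and 9.23% of all genes. H2AZ1 differed from GFP by 0.14 ± 0.24 in PR2VR and by 0.30 ± 0.24 in PRWT (log2, SE, n = 4 arrays each; limma adjusted p = 1.0 in both).

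The 95% interval of H2AZ1 in fusion against GFP was -0.23 to 0.68. H2AZ2, the second H2A.Z gene, differed by 0.04 ± 0.27 in fusion against GFP (interval -0.55 to 0.63). H2AX, whose product is phosphorylated around DNA breaks, differed by -0.02 ± 0.33 (-0.73 to 0.68), and H3-3A, a gene for the variant H3.3, by 0.08 ± 0.28 (-0.53 to 0.70). For H2AX the sign depended on the setting, and the mean of its 4 probe sets gave 0.04.

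H1-10 encodes the linker variant H1X. Its signal was 6290.3 and 5958.5 at 9 h and 8677 and 589.6 at 6 h on PR2VR arrays, 3334.7 and 7352.1 at 9 h and 3798.3 and 3304.8 at 6 h on PRWT arrays, and 4774.4 and 6248.6 at 9 h and 4518.3 and 3447.7 at 6 h on GFP arrays. The value of PR2VR at 6 h number 2 lies far below the other 11, and the other array of that group is the highest of all. The difference of fusion from GFP was -0.22 ± 0.52, and 0.25 without that array.

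**Figure D1:**
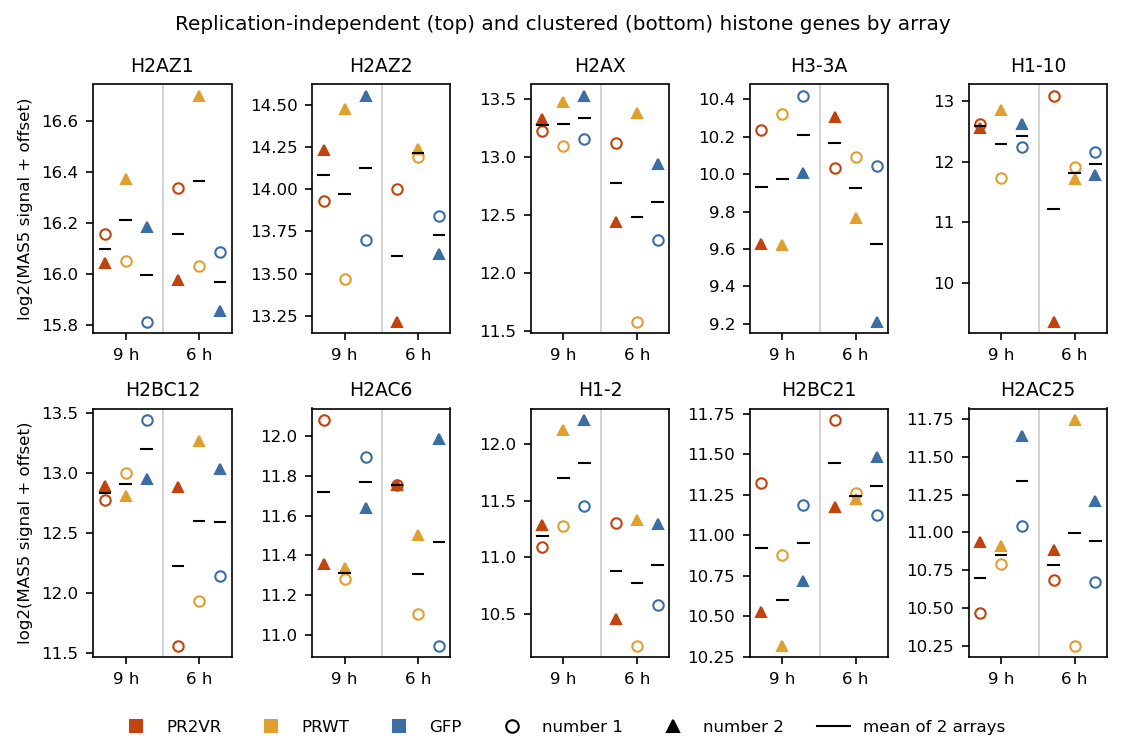
Log2(MAS5 signal + 62.5) of 5 replication-independent genes (upper row) and the 5 clustered genes with a signal above 616 on every array (lower row) on the 12 arrays, with 9 h left and 6 h right in each panel and the constructs coloured. Open circles are arrays of number 1, triangles arrays of number 2 and bars the mean of 2 arrays; constructs overlap in every panel, and H1-10 has 1 low value at 6 h in PR2VR.

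Of the clustered genes above 616 on every array, H2BC12, an H2B gene, read 6930.6 and 7533.3 at 9 h and 2947 and 7487.1 at 6 h on PR2VR arrays, 8135.8 and 7092.7 at 9 h and 3845.1 and 9767.9 at 6 h on PRWT arrays, and 11059.2 and 7859.9 at 9 h and 4461.3 and 8289.5 at 6 h on GFP arrays. The number 1 arrays of 6 h were the lowest 3 of the 12. Within every set PR2VR was below GFP, by 0.67 and 0.06 at 9 h and 0.59 and 0.15 at 6 h on the log2 scale, yet the difference of -0.37 ± 0.38 did not pass (limma adjusted p = 1.0). Lower than GFP in 4 of 4 sets were 2 of 30 histone genes in PR2VR, H2BC12 and H2AC14, against 9.96% of all genes.

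The other clustered genes with higher signals had differences close to their SE or below it. H2AC6, an H2A gene, differed from GFP by 0.12 ± 0.31 in PR2VR and -0.31 ± 0.31 in PRWT, and H1-2, a linker gene, by -0.35 ± 0.37 and -0.15 ± 0.37. H2BC21 gave 0.06 ± 0.31 and -0.21 ± 0.31, H2AC25 -0.40 ± 0.35 and -0.22 ± 0.35, H4C11 0.19 ± 0.46 and 0.30 ± 0.46, H2BC5 0.35 ± 0.44 and 0.00 ± 0.44, and H2BC12L -0.11 ± 0.76 and -0.51 ± 0.76, in the same order. None of these 7 genes passed, each with a limma adjusted p of 1.0.

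H2BC9, an H2B gene with low signal, had the largest difference of PRWT from GFP. It read 308.3 and 375.7 at 9 h and 466 and 525.4 at 6 h on PRWT arrays, and 200.6 and 142.6 at 9 h and 20.6 and 87 at 6 h on GFP arrays. All 4 PRWT values lie above all 4 GFP values, as for 1 of 30 histone genes and 0.817% of all genes, and all of them are below the highest bacterial control. The gene's mean passed the filter on PRWT arrays (8.89 on the log2 scale) and not on PR2VR (7.64) or GFP arrays (7.33), so it was tested through the group in which it is high, and neither the difference nor the lack of overlap counts as support. The difference was 1.56 ± 0.52 (log2, SE, n = 4 arrays each), with an unadjusted p of 0.010 and a limma adjusted p of 1.0 (0.56 with the block), and it was 1.01 with an offset of 200 and 2.00 with an offset of 16.

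On PR2VR arrays H2BC9 read 321.1 and 94.5 at 9 h and 224.7 and 29.4 at 6 h, number 1 high and number 2 low at both hours, overlapping GFP. The difference of PR2VR from GFP was 0.31 ± 0.52. H2BC9 is read by a probe set whose probes may also match other genes, as are H2BC5, H2BC6 and H2BC12L, so 4 of the 7 tested H2B genes cannot be told apart from near copies here.

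H2AC14, an H2A gene, had the largest difference of PR2VR from GFP. It read 150.9 and 185.4 at 9 h and 50.9 and 61.2 at 6 h on PR2VR arrays, 118.7 and 222.5 at 9 h and 644 and 378.5 at 6 h on PRWT arrays, and 370.7 and 731 at 9 h and 139 and 341.3 at 6 h on GFP arrays. PR2VR was lower than GFP in 4 of 4 sets, though its 9 h arrays overlap the lowest GFP array, of 6 h. The difference was -1.31 ± 0.45 with an unadjusted p of 0.012 and a limma adjusted p of 1.0 (0.228 with the block). With an offset of 200 it was -0.86. The mean on PR2VR arrays (7.37) lay under the filter, so the gene was tested through the other arrays. Neither the difference nor its direction in 4 of 4 sets counts as support. The probe set, like that of H2BC9, may match other genes.

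Other clustered genes had larger errors for their size. H2AC4, an H2A gene, differed by 0.86 ± 0.66 in PR2VR and 1.12 ± 0.66 in PRWT, and read 29.4 and 24.4 on 2 GFP arrays against 798.5 and 200.6 on the other GFP arrays. Without the GFP array of 9 h number 1 these differences were 0.05 and 0.31. H4C7 differed from GFP by 0.48 ± 0.48 in PR2VR, H2BC6 by 0.54 ± 0.63 and H4C8 by 0.38 ± 0.46, while H4C5 differed by -0.44 ± 0.44 and H3C3 by -0.54 ± 0.54. In PRWT, H4C4 differed from GFP by 0.42 ± 0.36, H2AC15 by -0.47 ± 0.53 and H2BC4 by -0.42 ± 0.50. The means of H2AC4 and H4C7 lay under the filter on GFP arrays, that of H3C3 on PR2VR arrays and that of H2AC15 on PRWT arrays. The differences of these genes do not count as support. H4C8 was above GFP in 4 of 4 sets in PR2VR, as were 10.3% of all genes, and H2BC9 in PRWT, as were 8.5%.

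**Figure D2:**
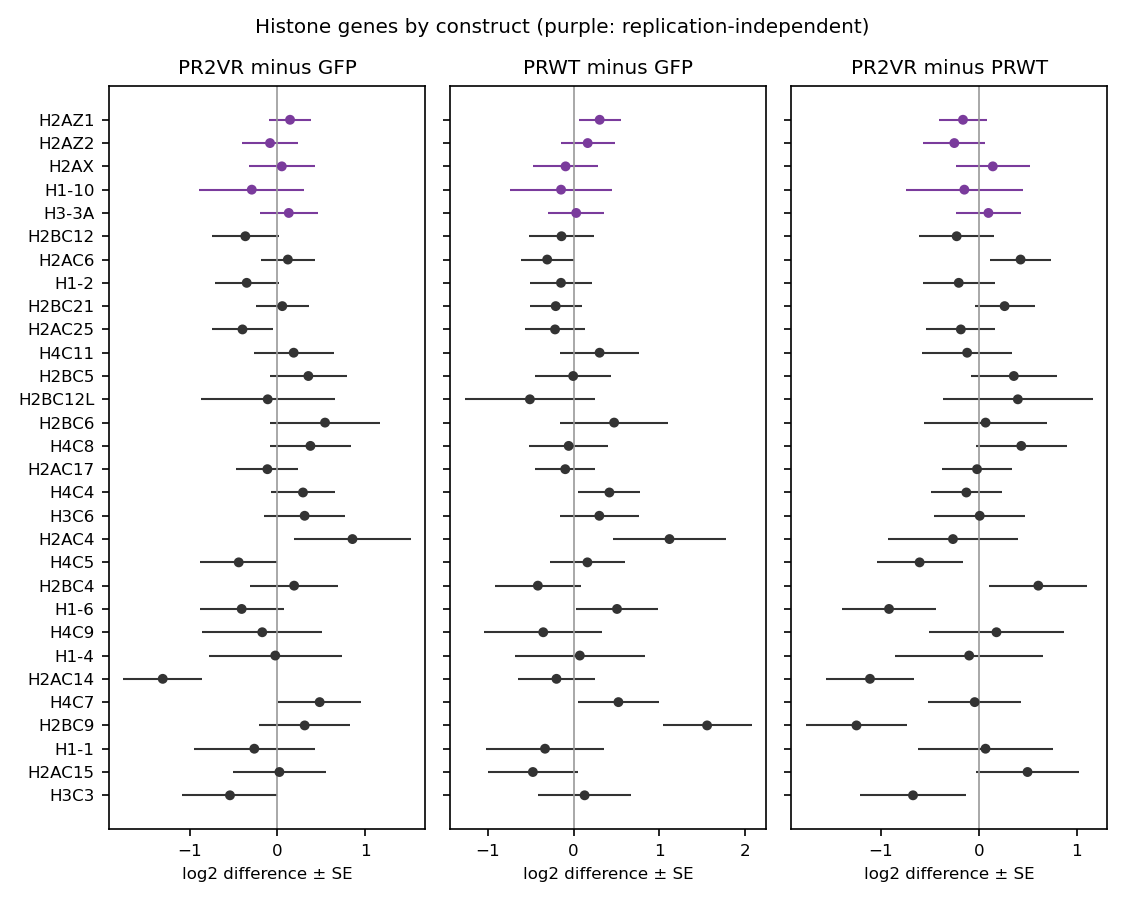
Log2 differences with their SE of the 30 tested histone genes for PR2VR minus GFP, PRWT minus GFP and PR2VR minus PRWT, ordered by mean signal within each class, replication-independent genes in purple. Most SE bars cross 0; H2AC14 lies at -1.31 in the left panel and H2BC9 at 1.56 in the middle one.

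PR2VR was then set against PRWT, the comparison that asks whether resistance to the protease alters the transcripts. No histone gene passed (0 of 30 in limma without and with the block), as no other gene did (0% of all genes), and 2 of 30 had an unadjusted p under 0.05 against 1.55% of all genes (with the block 2 of 30 against 6.86%). Without the block these were H2BC9 (-1.25 ± 0.52, 95% interval -2.37 to -0.13) and H2AC14 (-1.11 ± 0.45, interval -2.08 to -0.14), whose values against GFP share the same PR2VR and PRWT arrays. PR2VR and PRWT arrays overlap for both genes. Their means on PR2VR arrays, 7.64 for H2BC9 and 7.37 for H2AC14 on the log2 scale, lay under the filter. Both were thus tested through other arrays, so neither their count nor their differences count as support.

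The medians of PR2VR against PRWT were -0.04 for clustered genes, -0.15 for replication-independent genes and -0.01 for all genes. H1-6, the testis linker gene H1t, differed by -0.92 ± 0.48 and H4C5 by -0.60 ± 0.44. In the other direction H2AC6 differed by 0.43 ± 0.31, H2BC4 by 0.61 ± 0.50, H2AC15 by 0.50 ± 0.53 and H4C8 by 0.43 ± 0.46. The means of H1-6 on PR2VR arrays (7.81) and of H2AC15 on PRWT arrays (7.59) lay under the filter. The differences of these genes therefore do not count as support. H2AC6, H2BC4 and H4C8 were higher in PR2VR in 4 of 4 sets, 3 of 30 against 7.55% of all genes. The smallest of these differences was 0.017 for H2AC6 (9 h number 2) and 0.0078 for H2BC4 (6 h number 2). H2AC6 and H2BC4 are the pair with overlapping windows, and any bearing of the overlap on these values was not tested. For H2AC6 the signals were 4268.9 and 2557.6 at 9 h and 3387.1 and 3393.6 at 6 h on PR2VR arrays, against 2431.2 and 2526.9 at 9 h and 2145.9 and 2842.8 at 6 h on PRWT arrays, so that the arrays overlap only through the lowest PR2VR value. The intervals are wide: for H2BC12 they ran from -1.05 to 0.60 and for H3-3A from -0.61 to 0.81, so the lack of a call does not show that the fusions act alike.

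Between the hours most clustered genes had a positive difference, and 14 of 25 did without 1 set of arrays. Of 25 tested clustered genes 22 were above 0 at 9 h against 6 h over all constructs, with a median of 0.40, a count that includes the 7 genes under the filter at 6 h, and of 5 replication-independent genes 4, with a median of 0.21, against 60.6% above 0 and a median of 0.13 for all genes. In limma 0 of 30 passed, against 0.0788% of all genes, and 3 of 30 had an unadjusted p under 0.05, against 15.1% of all genes (with the block 0 of 30 against 5.49%). Without the 3 arrays of 9 h number 2, whose spiked controls and median signals differed, 14 of 25 clustered genes were above 0 with a median of 0.02, against 57.7% and 0.08 for all genes. Over all 45 clustered genes, with no filter, 35 were above 0 with a median of 0.23, against 63.4% and 0.16 for all 19775 genes. Under quantile normalization the count among the tested was 17 of 25 and the median 0.17. In a bulk sample a change in the share of cells in S phase and a change of RNA per cell cannot be told apart.

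H4C5, an H4 gene, had the smallest p between the hours. It read 313.6 and 303.1 on PR2VR, 403.1 and 587.5 on PRWT and 376.5 and 603.4 on GFP arrays at 9 h, against 202.8 and 49.9 on PR2VR, 186.2 and 227.6 on PRWT and 99.1 and 232.7 on GFP arrays at 6 h. All 6 arrays of 9 h lie above all 6 of 6 h, as for 1 of 30 histone genes and 1.25% of all genes. Its mean was 8.91 at 9 h and 7.76 at 6 h on the log2 scale, the second under the filter, so it was tested through the hour in which it is high. The difference was 1.15 ± 0.36 (log2, SE, n = 6 arrays each; unadjusted p = 0.0069, limma adjusted p = 0.216). Each hour holds 2 sets whose arrays go together, and with the block the SE was 0.54, the unadjusted p 0.052 and the limma adjusted p 0.857. Without the set of 9 h number 2 the difference was 0.97.

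In what follows, SE between the hours come from the fit without the block, which treats arrays of the same set as separate. With the block the SE was 0.43 for H1-2, 0.44 for H2AX and 0.34 for H2BC21, each with a limma adjusted p of 0.857. H1-2 differed between 9 h and 6 h by 0.71 ± 0.30 (adjusted p = 0.307 in limma). Its signals ran from 2123.9 to 4698.9 at 9 h and from 1126.8 to 2518.8 at 6 h, and without the set of 9 h number 2 the difference was 0.41. H2AX differed by 0.68 ± 0.31 (adjusted p = 0.327 in limma), with 8719.5 to 11772.7 at 9 h and 2987.1 to 10644.3 at 6 h, and by 0.54 without that set. H1-6 differed by 0.80 ± 0.39 (0.56 without the set), H2BC12 by 0.51 ± 0.31 (0.60), H4C11 by 0.61 ± 0.37 (0.54) and H1-10 by 0.77 ± 0.49 (0.53). H2BC21 went the other way, at -0.51 ± 0.25 (adjusted p = 0.352 in limma), and -0.20 without that set. H4C7 (-0.35 ± 0.39, and -0.0013 without the set), H3C6 (-0.15 ± 0.38, and -0.53) and H2AZ1 (-0.06 ± 0.20, and -0.16) were the other genes below 0. H2AC6 (0.09 ± 0.25, and 0.24 without the set), H2BC5 (0.22 ± 0.36, and 0.09) and H3-3A (0.13 ± 0.27, and 0.42) lay near it, and H2AZ2 (0.21 ± 0.26, and -0.15) and H2AC25 (0.06 ± 0.29, and -0.14) changed sign without the set. For H3C6 and H2AZ1 the sign also turned with single arrays left out.

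Within the constructs the clustered median between the hours was higher in GFP cells than in fusion cells, and no gene's own difference between them passed. In fusion cells the clustered median was 0.16 (16 of 25 above 0) and that of all genes 0.11 (58.8% above 0). In GFP cells the clustered median was 0.70 (23 of 25) and that of all genes 0.14 (59.8%). Over all 45 clustered genes the medians were 0.19 in fusion cells (29 of 45 above 0) and 0.40 in GFP cells (34 of 45). Those of all 19775 genes were 0.13 (60.2%) and 0.19 (62.6%). For the 25 tested clustered genes the fusion value was -0.14 without the set of 9 h number 2. The GFP value was 0.17 without the 6 h array of number 1, 1.10 without the 9 h array of number 1 and 0.43 without the set of 9 h number 2. The replication-independent medians were 0.12 in fusion cells and 0.46 in GFP cells. No histone gene passed in either (0 of 30 each, 0% of all genes each). At an unadjusted p under 0.05 there was 1 of 30 in fusion cells (9.01% of all genes) and 2 of 30 in GFP cells (4.85%), and with the block 0 of 30 (4.91%) and 3 of 30 (5.09%). In fusion cells H4C5 differed by 1.07 ± 0.44 (0.96 without the set of 9 h number 2), H1-1 by 1.09 ± 0.69 (0.46), H2AX by 0.65 ± 0.38 (0.53) and H1-2 by 0.62 ± 0.37 (0.36). In the other direction H2BC21 differed by -0.58 ± 0.31 (-0.24), H4C7 by -0.68 ± 0.48 (-0.14), H2BC4 by -0.27 ± 0.50 (-0.46) and H2AZ1 by -0.10 ± 0.24 (-0.16).

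In GFP cells H1-6 read 567.1 and 440.6 at 9 h, against 96.3 and 94.6 at 6 h, a difference of 1.83 ± 0.68 (limma adjusted p = 0.941). The mean of its 2 probe sets gave 0.86, and without the array of 9 h number 2 the value was 1.99. H3C3, an H3 gene, read 340 and 485.9 at 9 h against 132.7 and 45.9 at 6 h (1.69 ± 0.77, adjusted p = 0.941 in limma), and 1.47 without the array of 9 h number 2. H2BC6 read 617.6 and 911.9 at 9 h against 25.7 and 591.8 at 6 h (1.76 ± 0.89), and 0.32 without the array of 25.7. H4C5 differed by 1.31 ± 0.62 (1.01 without the array of 9 h number 2), H2BC21 by -0.36 ± 0.43 (-0.12) and H3C6 by -0.26 ± 0.66 (-0.88). With 2 arrays at each hour, the GFP arrays of 9 h lay above those of 6 h for 12 of 30 histone genes, H1-6, H3C3 and H2BC6 among them, and for 25.2% of all genes, and below them for 0 of 30 (12.6%). Of these 12, H1-6, H3C3, H4C5, H2BC9 and H2AC15 had a mean under the filter at 6 h. Their separation is partly built into their selection, so the count does not set histone genes apart from all genes.

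**Figure D3:**
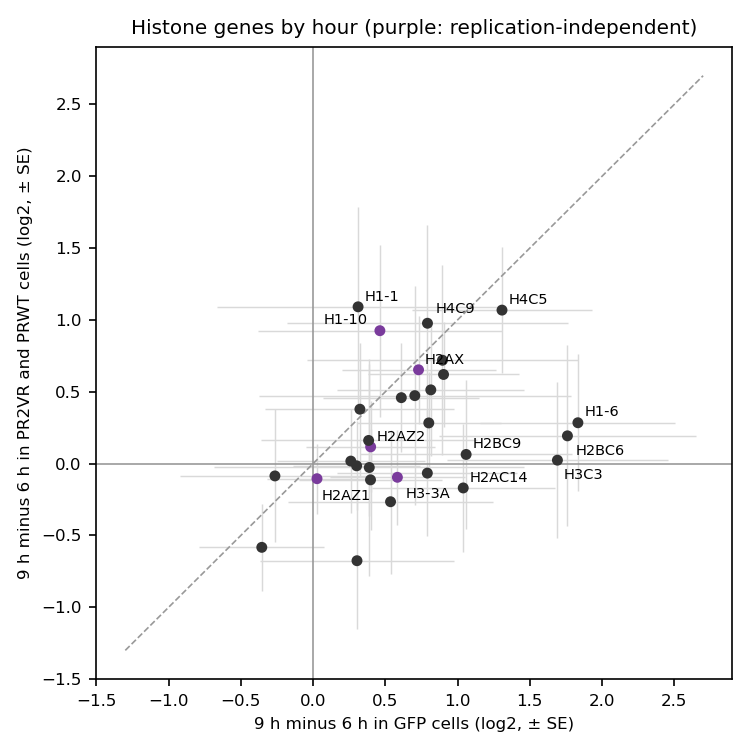
Log2 difference of 9 h minus 6 h in PR2VR and PRWT cells (vertical axis) against the same in GFP cells (horizontal axis) for the 30 tested histone genes, with SE bars, replication-independent genes in purple and a dashed line of equal difference. Of the 30 points 25 lie below the dashed line, and H1-6, H2BC6 and H3C3 lie farthest to the right.

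The difference between these differences was tested as an interaction, fusion against GFP at 9 h less the same at 6 h. Of 30 histone genes 25 were below 0, all 9 of H2A and all 7 of H2B among them, with a median of -0.30 for clustered and -0.13 for replication-independent genes against -0.02 and 48% above 0 for all genes. None passed in limma (0 of 30, 0% of all genes), 0 of 30 had an unadjusted p under 0.05 against 0.759% of all genes, and 2 of 30, H3C3 and H2BC6, did with the block (3.11%). H3C3 had -1.67 ± 0.94, H2BC6 -1.57 ± 1.09, H1-6 -1.55 ± 0.83 and H2AC14 -1.21 ± 0.78. Above 0 were H1-1 (0.78 ± 1.20), H1-10 (0.46 ± 1.04), H4C9 (0.19 ± 1.19), H3C6 (0.18 ± 0.80) and H4C8 (0.05 ± 0.80), and the first 4 of these changed sign with 1 array left out. Over all 45 clustered genes, with no filter, 32 were below 0 with a median of -0.24, against 46.1% above 0 and -0.05 for all 19775 genes.

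These 25 values share the 4 GFP arrays, and the clustered median moved with single arrays of GFP: it was -0.05 without the 6 h array of number 1, -0.78 without the 6 h array of number 2 and -0.74 without the 9 h array of number 1. The GFP array of 6 h number 1 had the lowest clustered median of all 12, 8.04 on the log2 scale against 8.65 to 9.70 on the other 11, while its median over all genes, 10.64, lay within the range of 10.45 to 10.81. At 9 h the fusions had a clustered median of -0.25 against GFP (8 of 25 above 0, 45.7% of all genes) and at 6 h of 0.15 (16 of 25, 50.4% of all genes). Over all 45 clustered genes, with no filter, the median was -0.19 at 9 h (17 of 45 above 0, 45.3% of all 19775 genes). At 6 h it was 0.06 (24 of 45, 51.7% of all 19775 genes). No histone gene passed at either hour (0 of 30 each, 0.00716% of all genes each). At an unadjusted p under 0.05 there was 1 of 30 at 9 h (2.08% of all genes) and 1 of 30 at 6 h (1.83%), and with the block 1 of 30 at 9 h (6.32%) and 2 of 30 at 6 h (5.63%).

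At 9 h H2AC14 differed between fusion and GFP by -1.36 ± 0.55, H3C3 by -1.04 ± 0.66, H2AC25 by -0.56 ± 0.43 and H1-6 by -0.72 ± 0.59, and H2AC4 by 0.90 ± 0.81, H3C6 by 0.39 ± 0.57, H2BC9 by 0.44 ± 0.64 and H2AZ1 by 0.16 ± 0.30. At 6 h H2BC9 differed by 1.43 ± 0.64, H2BC6 by 1.29 ± 0.77, H4C7 by 0.99 ± 0.58 and H1-6 by 0.82 ± 0.59, and H1-1 by -0.69 ± 0.85, H1-10 by -0.45 ± 0.73, H4C9 by -0.36 ± 0.84 and H2BC12 by -0.18 ± 0.47. For H2BC6 the 6 h value was -0.15 without the GFP array of number 1. The means of H2AC14, H3C3, H1-6 and H1-1 lay under the filter on PR2VR arrays, and those of H2BC9, H2AC4 and H4C7 on GFP arrays. The differences of these genes, and counts that include them, do not count as support.

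**Figure D4:**
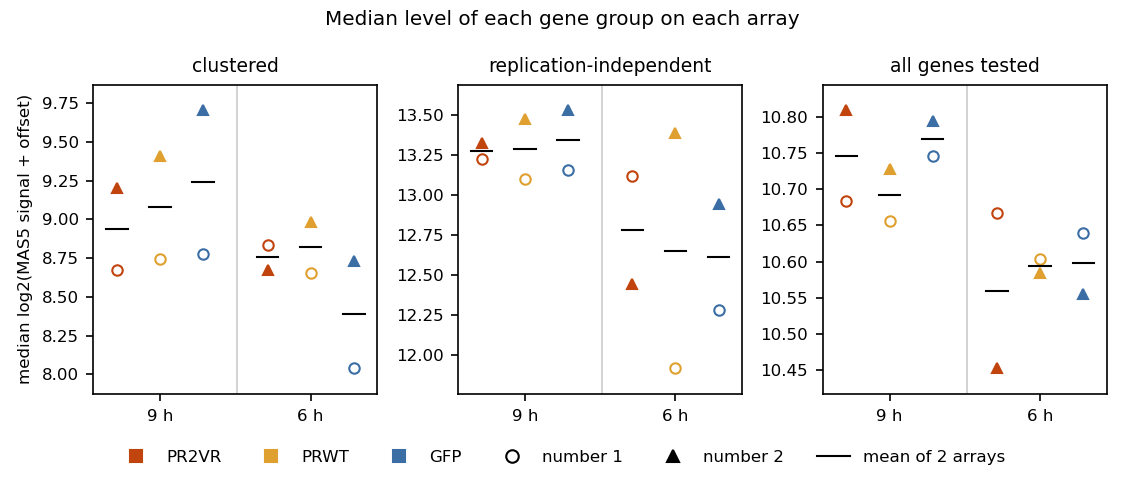
Median log2(MAS5 signal + 62.5) of the 25 clustered genes, the 5 replication-independent genes and all 13959 genes tested on each array, 9 h left and 6 h right, with constructs coloured, open circles for number 1 and triangles for number 2. The GFP array of 6 h number 1 has the lowest clustered median (8.04) and the GFP array of 9 h number 2 the highest (9.70), and the bars are means of 2 arrays.

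Array number took a larger median share of the variance of the clustered genes than construct did, as it did over all genes. At 6 h the number 2 array was above the number 1 array in all 3 constructs for 9 of 30 histone genes, all of them clustered (H2BC12, H2AC6, H2AC25, H2BC5, H2BC12L, H2BC6, H4C8, H2BC4 and H4C7), and for 15.3% of all genes, while the reverse held for H1-10 (1 of 30, 23.7% of all genes). At 9 h number 2 was above number 1 in all 3 constructs for 15 of 30 (34.1% of all genes) and below for H2BC21 and H3-3A (2 of 30, 27.9%). H2AC25, H2BC12L, H2BC6 and H4C8 were higher in number 2 in 6 of 6 pairs, 4 of 30 against 6.38% of all genes.

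H4C8, an H4 gene, shows the pattern: it read 778, 743.9 and 771.4 on the number 2 arrays of PR2VR, PRWT and GFP at 9 h, against 473.1, 385.1 and 310.3 on the number 1 arrays. At 6 h it read 765, 585 and 538.5 on the number 2 arrays, against 408.4, 162.9 and 267.6 on the number 1 arrays, so number 2 was above number 1 without overlap at each hour. H2BC12L read 1091.1, 936.4 and 1248.3 on number 2 arrays at 9 h, against 392.9, 315.6 and 550.7 on number 1 arrays. At 6 h it read 682.6, 1613.2 and 947.1 on number 2 arrays, against 394.9, 31.1 and 237.4 on number 1 arrays, again apart at each hour. Such a separation, number 2 above number 1, held at 9 h for 11 of 30 histone genes and 24.7% of all genes and at 6 h for 6 of 30 and 8.68%, and the reverse for 2 of 30 (19.6%) at 9 h and 1 of 30 (14.5%) at 6 h. H4C8 and H2BC12L were picked after their values were seen. Of the variance of H4C8 over the 12 arrays, 70.5% lay between numbers within an hour, 10.9% between constructs and 9.51% between hours. For the clustered genes the median shares were 34.9% number within hour, 10.9% construct and 9.51% hour, close to those of all genes at 31.9%, 10.2% and 11.7%. For the replication-independent genes they were 33.6%, 2.64% and 7.29%.

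**Figure D5:**
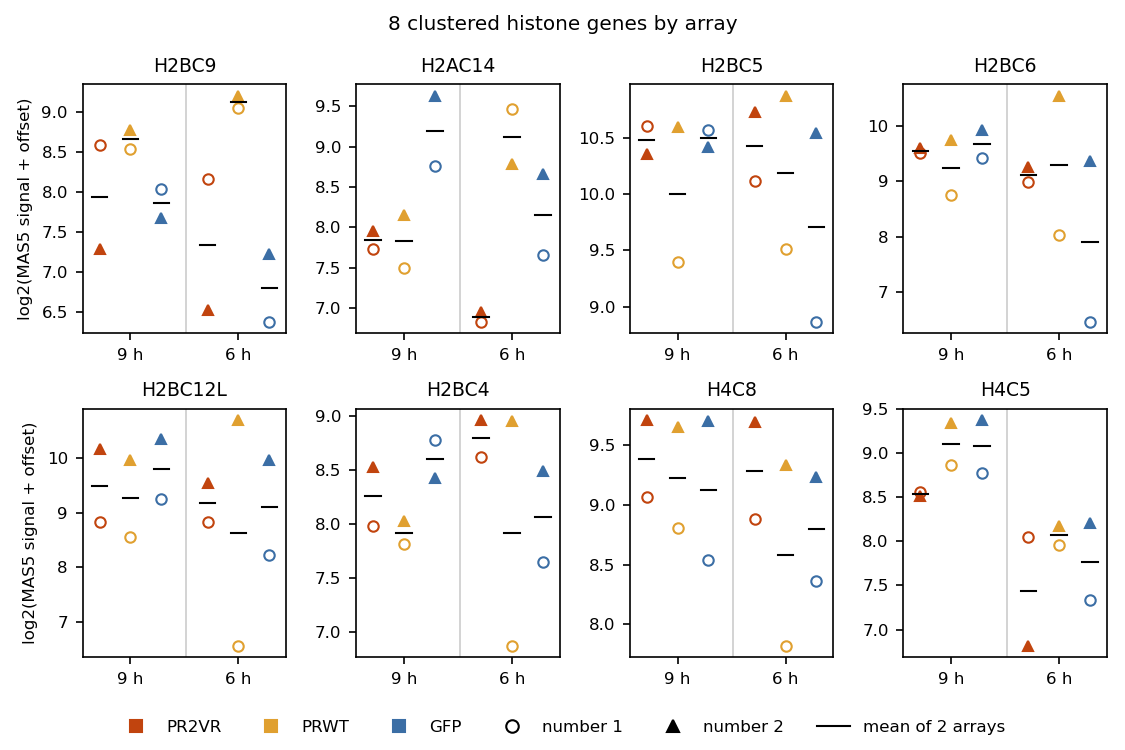
Log2(MAS5 signal + 62.5) of 8 clustered genes on the 12 arrays, 9 h left and 6 h right, constructs coloured, open circles for number 1, triangles for number 2 and bars for the mean of 2 arrays. Triangles lie above circles in all 6 groups for H2BC6, H2BC12L and H4C8, the 6 arrays of 9 h lie above those of 6 h for H4C5, and PRWT lies above GFP for H2BC9.

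The genes that process histone mRNA, carry histones or encode other variants gave no call. Of 16 factors of histone mRNA, 28 tested chaperones and remodellers and 3 other variants, 0 passed in any of the 10 comparisons in limma without or with the block, with medians in fusion against GFP of 0.01, 0.00 and -0.10 against -0.02 for all genes. Of all genes at most 0.0788% passed in a comparison without the block and 0.315% with it. SLBP, the stem-loop binding protein, had signals of 15893.7 to 25216 and differed by 0.17 ± 0.20 in fusion against GFP and by 0.29 ± 0.19 at 9 h against 6 h (0.17 without the set of 9 h number 2). NPAT, the activator of clustered genes, differed by 0.15 ± 0.29 and -0.07 ± 0.28 in the same comparisons, the second being 0.27 without that set. ZNF473, which helps cleave histone pre-mRNA, differed by 0.62 ± 0.32 in fusion against GFP (limma adjusted p = 1.0, and 0.248 with the block).

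DAXX, the H3.3 chaperone of PML bodies, differed by 0.15 ± 0.39 in fusion against GFP, ATRX by -0.09 ± 0.28, HIRA, the other H3.3 chaperone, by 0.12 ± 0.57 and CHAF1A, of the replication-coupled assembly factor CAF-1, by 0.31 ± 0.40. The centromeric variant CENPA differed by -0.10 ± 0.32 and MACROH2A1 by -0.12 ± 0.20. In PR2VR against PRWT the smallest p-values in these lists were those of TYMS, thymidylate synthase (-0.61 ± 0.23), HAT1, which acetylates new H4 (-0.54 ± 0.23), and ANP32E, which removes H2A.Z (-0.58 ± 0.27), each with a limma adjusted p of 1.0. At 9 h against 6 h they were those of HJURP, the CENPA chaperone (0.98 ± 0.24, adjusted p = 0.175 in limma, and 0.85 without the set of 9 h number 2), CABIN1 (0.90 ± 0.31, and 0.36) and CDC6 (0.95 ± 0.33, and 0.60). Between the hours in fusion cells HJURP differed by 0.98 ± 0.30 (0.87 without the set), TYMS by 0.69 ± 0.23 (0.82) and the cyclin CCNE2 by 1.05 ± 0.37 (0.55). In GFP cells SRCAP, the remodeller that loads H2A.Z, differed by 1.81 ± 0.58 (1.71), HJURP by 0.98 ± 0.42 (0.81) and CABIN1 by 1.09 ± 0.54 (0.65), and none of these values passed.

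Of 23 genes listed for S phase 8 were above 0 in fusion against GFP with a median of -0.05, and 18 were above 0 at 9 h against 6 h with a median of 0.26 (19 and 0.27 without the set of 9 h number 2). Of all genes 47.6% were above 0 in fusion against GFP with a median of -0.02. Between the hours 60.6% were, with a median of 0.13 (57.7% and 0.08 without that set). The S phase list includes the cyclin-dependent kinase inhibitors CDKN1A and CDKN1B, so its counts and medians are not a measure of S phase. CDKN1A, which encodes the cyclin-dependent kinase inhibitor p21, was the only gene of these lists to pass, and only with the block: it fell by 1.22 ± 0.15 on the log2 scale in fusion against GFP (limma adjusted p = 0.012, against 0.310 without the block) and by 1.15 ± 0.18 in PR2VR against GFP (adjusted p = 0.035, against 0.524). In PRWT against GFP the value was -1.28 ± 0.18 (adjusted p = 0.068 with the block in limma). No other gene of this list passed in any comparison (0 of 23 without the block).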

How the data were processed

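RNA of 12 samples was hybridised to Affymetrix arrays, 2 for each of 3 constructs at each of 2 hours. Per the submitters' processing notes the deposited values are MAS5 signals, an intensity on a linear scale, with no MAS5 version given in the sources used. The deposited table was already scaled and was not normalized again. From it log2(signal + 62.5) was computed, 62.5 being the 20th percentile of all signals. Of 54675 probe sets, 41091 had 1 symbol in the platform annotation, 1801 several and 11721 none, and 62 were controls. Each gene was read from its probe set with the highest mean, and genes whose mean lay under the 40th percentile (a signal of 168.9) were left out, which kept 13959. Group means were fitted in limma 3.58.1 under R 4.3.3 with a variance trend, contrasts were taken, and p-values were adjusted by Benjamini-Hochberg over all 13959 genes with a threshold of 0.05. The fit was tested on simulated data. The number of arrays limits the precision.

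Arrays of the same hour and number in the titles were checked for pairing. Their deviations from the group means correlated at 0.56 to 0.63 at 9 h and 0.15 to 0.36 at 6 h over all genes, so a second fit took hour and number as a block, as a random block between hours (correlation 0.409). Alternatives were offsets of 16 and 200, no filter, all probe sets, the mean of a gene's probe sets, quantile normalization, no variance trend, the block, leaving out 9 h number 2, and leaving out each array in turn. Members and lists were chosen with earlier results of these data known. Genes were named by rule: every tested replication-independent gene, the 12 clustered genes with the highest mean, the 4 smallest p-values in each direction per comparison, and, from the other lists, the 3 smallest p-values per comparison and a fixed few. H4C8 and H2BC12L by array, and H3C8 and H3-4, were chosen after their values were seen. Of probe sets with several histone symbols, 29 were not used, and those for H3-3B are among them. Sequences are RefSeq windows of GRCh38.p14.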

Additional observations from a re-analysis of the deposited data

How the results depend on the processing

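No histone gene passed in any of 210 combinations of comparison and setting. Few genes of any kind passed: at most 0.0788% of all genes in a comparison of the main fit and 0.315% with the block. The lack of calls therefore does not set the histone genes apart. Of 1905 single-gene values, those of the genes with the smallest p in each comparison and of the other genes named for class or signal in fusion against GFP, 56 changed sign with 1 array left out and 5 otherwise. The 5 were H2AZ1 under quantile normalization, 0.11 at 9 h against 6 h and 0.12 within fusion cells, H1-6 in fusion against GFP at 6 h with the mean of probe sets (-0.034), and H2AX in fusion against GFP with the mean of probe sets (0.042) and without 9 h number 2 (0.013). With the replicate block, H2BC9 in PRWT against GFP had an adjusted p of 0.56 and H2AC14 in PR2VR against GFP one of 0.228 in limma; the block changed no call of a histone gene, and moved the count of all genes called to 44 in fusion against GFP and 41 in PR2VR against GFP, against 1 each without it, and to 0 at 9 h against 6 h, against 11. Without single arrays the last count ran from 0 to 53 (without PR2VR at 6 h number 2; at most 5 without any other array), and it was 2 without the variance trend, 3 after quantile normalization, 4 with the mean of probe sets and 0 without 9 h number 2. The cause was not tested.

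With 1 array left out, the clustered median between hours in GFP cells ran from 0.17 to 1.10 and that of the interaction from -0.78 to -0.047. Lowest and highest values of genes that changed sign were as follows. At 9 h against 6 h, H2AZ1 ran from -0.17 to 0.050 and H3C6 from -0.36 to 0.069; in fusion cells, H2AZ1 from -0.27 to 0.061 and H2BC4 from -0.79 to 0.26; in GFP cells, H3C6 from -0.91 to 0.38. In the interaction H1-1 ran from -0.54 to 2.10, H1-10 from -0.47 to 1.40, H3C6 from -0.46 to 0.82 and H4C9 from -0.93 to 1.30. In fusion against GFP at 6 h H1-10 ran from -1.39 to 0.49, H2BC12 from -0.62 to 0.26, H2BC6 from -0.15 to 2.74 and H4C9 from -1.47 to 0.76, and at 9 h H2AC4 from -0.71 to 2.51, H2AZ1 from -0.027 to 0.34 and H3C6 from -0.22 to 1.01. Over both hours H1-10 ran from -0.69 to 0.25, H2AC17 from -0.26 to 0.044, H2AC6 from -0.35 to 0.17, H2AX from -0.25 to 0.20, H2AZ2 from -0.17 to 0.25, H2BC12L from -0.83 to 0.21, H2BC21 from -0.19 to 0.042, H2BC5 from -0.25 to 0.59, H2BC6 from -0.21 to 1.23, H3-3A from -0.13 to 0.29, H4C11 from -0.0070 to 0.50 and H4C8 from -0.13 to 0.45. In PR2VR against GFP H2BC6 ran from -0.18 to 1.27, and in PRWT against GFP H2BC4 from -0.94 to 0.11. The leading values kept their direction: H2BC9 in PRWT against GFP 1.35 to 1.77, H2AC14 in PR2VR against GFP -1.56 to -1.06 and H4C5 at 9 h against 6 h 0.94 to 1.35. With an offset of 200 the first was 1.01 and the second -0.86, and with an offset of 16 they were 2.00 and -1.63, since both genes have low signals. H2BC9, H2AC14 and H4C5 were picked for small p-values. Each had a mean under the filter in a group compared, so keeping a direction does not count as support. Quantile normalization moved the all-gene median between hours in GFP cells to 0.04, against 0.14.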
